A study of Homo sapiens with 4 samples.

Results

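The miR-29 family is a group of microRNAs made from 4 hairpins at 2 places in the human genome. It was described here through every row of the deposited table whose name, without copy and strand suffix, is miR-29a, miR-29b or miR-29c. This gave 7 mature strands of 1345 in the table, 3 from the 3p side and 4 from the 5p side of the hairpins, and each of the 7 had enough reads for the test used below.

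The 4 small-RNA libraries come from HCT116, a human colorectal carcinoma cell line that carries a short hairpin RNA (shRNA) against SAE2, the catalytic subunit of the enzyme that activates the small modifier SUMO. The shRNA is switched on by doxycycline, which per the labels was given for 3 days before total RNA was taken. The plus group (shRNA induced) has 2 libraries, 1 whose label gives no shRNA number and 1 from the line with the shRNA sh2. The minus group (not induced) also has 2 libraries, 1 from the line with the shRNA sh1 and 1 from the sh2 line. All 4 libraries therefore carry an SAE2 shRNA construct, and each line is an engineered derivative of HCT116. The plus library without a number, replicate 1, was assigned to the sh1 line because no other was left. Plus and minus were read as with and without doxycycline from those words alone, since the labels give every library the same treatment text. Cells given doxycycline without such an shRNA were not analysed here, so an effect of doxycycline itself cannot be told apart from that of the knockdown. SAE2 mRNA is not read by miRNA libraries, so the knockdown was not checked.

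A miRNA hairpin is cut by Drosha and Dicer into a short duplex of a 5p and a 3p strand, and usually the Argonaute protein keeps mainly 1 of them. The other strand, the minor or star strand, is mostly degraded. In the miR-29 family the kept strand is the 3p strand. It recognises mRNAs through its seed, bases 2 to 8, and is known for repressing collagens and other matrix genes, the DNA methyltransferases DNMT3A and DNMT3B and the survival factor MCL1. The transcription factor MYC is known to repress the family.

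The mature sequences are shown because they decide which strands can be told from each other in these data. They are those of RefSeq for GRCh38.p14, which had an entry for all 7 strands, written 5′ to 3′ with the seed in capitals. The 3 main strands share a seed, AGCACCA, and no other mature human miRNA in the RefSeq table has it.
miR-29a-3p: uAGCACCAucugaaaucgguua
miR-29b-3p: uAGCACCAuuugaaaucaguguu
miR-29c-3p: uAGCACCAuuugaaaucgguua
The 4 minor strands each have a seed of their own, which no other mature miRNA in the RefSeq table shares.
miR-29a-5p: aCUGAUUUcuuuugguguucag
miR-29b-1-5p: gCUGGUUUcauauggugguuuaga
miR-29b-2-5p: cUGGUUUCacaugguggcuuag
miR-29c-5p: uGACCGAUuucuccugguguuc

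Counted from 1 at the 5′ end, miR-29a-3p and miR-29c-3p differ at 1 of 22 bases, C10U, outside the seed. miR-29a-3p and miR-29b-3p differ at 4 of the first 22 bases, C10U, G18A, U21G and A22U. miR-29b-3p alone carries the hexamer AGUGUU, from base 18 to its end, an element known to carry this miRNA into the nucleus. miR-29b-3p is the same from both of its hairpins, so the 5p strands alone tell the copies apart. miR-29b-2-5p lines up with miR-29b-1-5p when it starts 1 base further in, with 20 of 22 bases identical.

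The 4 hairpins are shown with the mature strands in capitals, the 5p strand to the left and the 3p strand to the right.
MIR29A: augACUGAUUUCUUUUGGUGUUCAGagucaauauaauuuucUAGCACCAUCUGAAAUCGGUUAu
MIR29B1: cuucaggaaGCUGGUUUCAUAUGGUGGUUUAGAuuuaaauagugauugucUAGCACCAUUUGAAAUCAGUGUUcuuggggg
MIR29B2: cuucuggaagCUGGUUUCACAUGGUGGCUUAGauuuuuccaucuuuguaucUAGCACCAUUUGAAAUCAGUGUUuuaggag
MIR29C: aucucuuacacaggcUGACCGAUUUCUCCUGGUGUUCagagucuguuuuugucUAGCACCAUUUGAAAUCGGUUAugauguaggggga

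MIR29A lies at chr7:130876747-130876810 and MIR29B1 at chr7:130877459-130877539 (GRCh38.p14, minus strand), 648 bases apart. In GENCODE 29 the MIR29B1 hairpin lies within an exon of the long non-coding RNA LINC-PINT on the same strand, and 2 bases of the MIR29A hairpin overlap that exon. Both hairpins also lie wholly within the longer non-coding RNA gene AC016831.6 on the same strand. MIR29C lies at chr1:207801852-207801939 and MIR29B2 at chr1:207802443-207802523, also on the minus strand and 503 bases apart. Both lie within an exon of the non-coding host gene MIR29B2CHG. The deposited table holds no coordinates, so these positions come from the annotation alone.

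The libraries had between 9700472 and 10519207 normalised read counts, the submitters' read counts brought to a common library size, and 1 read was worth between 0.945 and 1.028 of them. A count of 0 allows up to 2.84 to 3.08 normalised counts. miRNAs of intestinal epithelium (miR-192, miR-194, miR-215 and the miR-200 family) made up 2.81% to 3.27% of each library, blood miRNAs 0.0101% to 0.0126%, and miRNAs of stroma and endothelium 0.210% to 0.246%. The last share counts miR-199a-3p and miR-199b-3p, which had equal values in each library, under both names. In bulk RNA, fewer cells of a kind and less RNA per cell cannot be told apart.

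With induction none of the 3 main strands of the family passed the test, while 3 of the 4 minor strands were lower in both plus libraries than in both minus libraries, an order found in 33.9% of all 709 tested miRNAs. miR-29a-5p fell by 22.7%, miR-29b-1-5p by 25.6% and miR-29c-5p by 32.2%. miR-29b-2-5p, the minor strand of the other miR-29b copy, was 1.15-fold of its minus level and did not pass. Over the family, 3 of 7 strands fell and 4 did not pass (limma on log2(value + 1), Benjamini-Hochberg adjusted p under 0.05). In the same comparison 15.1% of the 709 tested miRNAs fell and 28.5% were called in either direction. The split of 95 up and 107 down became 121 up and 83 down under median-ratio scaling. The number called in all, 202, was 7 (replicate 1 out) or 8 (replicate 2 out) when a plus library was left out, and for a minus library 95 (replicate 1 out) or 115 (replicate 2 out).

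miR-29a-3p was by far the most abundant member and ranked 8 by mean level among all miRNAs in the table. It had 237839 and 247692 normalised counts in plus replicates 1 and 2, against 240484 and 235328 in minus replicates 1 and 2. The groups overlapped, with the highest library a plus library and the lowest a minus library. This was 2.39% ± 0.0452 of all counts in the plus and 2.43% ± 0.0114 in the minus libraries (SD, n = 2 each). The fitted log2 change of 0.03 had a 95% interval of −0.14 to 0.19 and a standard error of 0.08 (limma adjusted p = 0.830). The sign of this small change turned with the scaling, to −0.03 with equal totals and to −0.15 under quantile normalization, where it passed the threshold (adjusted p = 0.0037). Over its 11 alternatives that kept every library the adjusted p lay between 0.0037 and 0.872.

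miR-29b-3p, the member with the nuclear import element, ranked 119. It had 3603 and 3299 normalised counts in the plus libraries, against 3165 and 2959 in the minus libraries. Both plus libraries lay above both minus libraries, as for 29.1% of the tested miRNAs. The fitted log2 change of 0.17 had an interval of −0.02 to 0.36 and a standard error of 0.10 and did not pass (limma adjusted p = 0.191). Leaving out a plus library gave 0.11 (replicate 1 out) or 0.24 (replicate 2 out).

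miR-29c-3p ranked 226. It had 607 and 565 normalised counts in the plus libraries, against 606 and 485 in the minus libraries. Minus replicate 2 was the lowest library, and minus replicate 1 lay level with plus replicate 1. The log2 change of 0.11 had a standard error of 0.13 and an interval of −0.15 to 0.37 and did not pass (limma adjusted p = 0.552). Without minus replicate 2 the change was −0.05. This strand differs from miR-29a-3p by the base at C10U and stands at a level 392 to 485 times lower. The sources used here do not give the mismatches allowed in counting, and how many miR-29a-3p reads were counted under its name was not tested.

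In all, the 7 strands summed to 242668 and 252195 normalised counts in the plus libraries, against 245062 and 239570 in the minus libraries. The groups overlapped, at p = 0.667 in an exact two-sided permutation test. miR-29a-3p made up 98.1% ± 0.145 of this sum in the plus and 98.2% ± 0.0689 in the minus libraries (SD, n = 2 each). miR-29b-3p followed with 1.396% ± 0.125 in the plus and 1.26% ± 0.0399 in the minus libraries. The order of levels, from miR-29a-3p through miR-29b-3p, miR-29c-3p, miR-29a-5p and miR-29b-1-5p, was the same in each library. miR-29c-5p and miR-29b-2-5p came last and changed places, with miR-29c-5p lower in the plus and higher in the minus libraries.

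**Figure D1:**
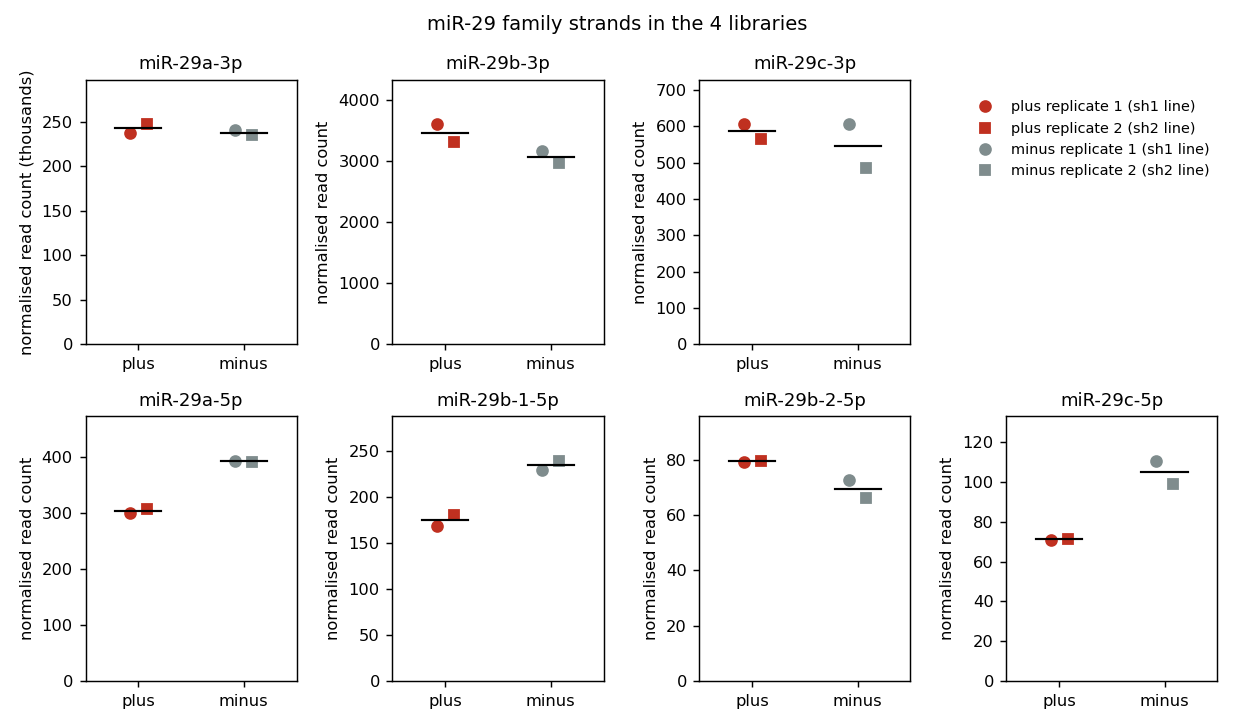
Normalised read count of the 7 miR-29 strands in each library (circles, replicate 1; squares, replicate 2; red, plus; grey, minus), with a bar at the mean of 2 libraries and axes from 0. The 3p strands (upper row) lie at similar heights in both groups, while miR-29a-5p, miR-29b-1-5p and miR-29c-5p lie lower in the plus libraries, at means of 304, 175 and 71.3 against 393, 235 and 105.

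Among the minor strands, miR-29a-5p comes from the same hairpin as miR-29a-3p. It had 300.3 and 308 normalised counts in the plus libraries, against 394 and 392 in the minus libraries. The libraries of a group lay close together, and the groups did not overlap. On the log2 scale it fell by 0.37 ± 0.14 (standard error, limma adjusted p = 0.0438).

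miR-29b-1-5p, from the neighbouring hairpin on chromosome 7, had 169 and 181 normalised counts in the plus libraries, against 230 and 240.1 in the minus libraries. The groups did not overlap. On the log2 scale it fell by 0.43 ± 0.16 (standard error, limma adjusted p = 0.0448). The ratio of miR-29a-5p to miR-29b-1-5p was 1.78 and 1.70 in the plus libraries, against 1.71 and 1.63 in the minus libraries, so these neighbours on chromosome 7 kept a like ratio in each library, with overlapping groups.

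miR-29c-5p, from the chromosome 1 pair, had 71.0 and 71.6 normalised counts in the plus libraries, against 111 and 99.3 in the minus libraries. Both plus libraries lay below both minus libraries, as for 33.9% of the tested miRNAs. On the log2 scale it fell by 0.55 ± 0.21 (standard error, limma adjusted p = 0.0461). The values rest on about 139 reads in the plus and 215 in the minus libraries. Their ratio on the normalised scale was 0.678, with a 95% exact binomial (Clopper-Pearson) interval of 0.544 to 0.844 that covers counting error only.

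miR-29b-2-5p had 79.2 and 79.7 normalised counts in the plus libraries, against 72.6 and 66.1 in the minus libraries. It was the minor strand whose plus libraries lay above the minus libraries. The log2 change of 0.19 had a standard error of 0.22 and an interval of −0.26 to 0.65 and did not pass (limma adjusted p = 0.540). The counting interval of its ratio, 0.906 to 1.449 around 1.15, includes no change.

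The 3 falls lay just inside the threshold, at adjusted p-values from 0.0438 to 0.0461, and none was past it without plus replicate 1 (0.134 to 0.152), plus replicate 2 (0.0953 to 0.133), minus replicate 1 (0.161 to 0.315) or minus replicate 2 (0.142 to 0.251). Each was also lost under median-ratio scaling, quantile normalization, a minimum mean of 1, no level filter or no trend, and miR-29a-5p under scaling by a trimmed mean as well, with log2 changes between −0.63 and −0.28 over all alternatives. The adjusted p-values of the 3 strands lay between 0.0306 and 0.139 over the alternatives that kept every library.

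Within each shRNA line there is 1 library per condition, which allows no test, and the same strands were lower in both. In the sh1 line the plus library was at −0.39 for miR-29a-5p, −0.44 for miR-29b-1-5p and −0.64 for miR-29c-5p on the log2 scale. In the sh2 line these changes were −0.35, −0.41 and −0.47. miR-29b-2-5p was at 0.12 in the sh1 and 0.27 in the sh2 line, and miR-29b-3p at 0.19 and 0.16. miR-29a-3p was at −0.02 in the sh1 and 0.07 in the sh2 line. The gap between the lines was widest for miR-29c-3p, at 0.0019 in the sh1 and 0.22 in the sh2 line, followed by miR-29c-5p.

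**Figure D2:**
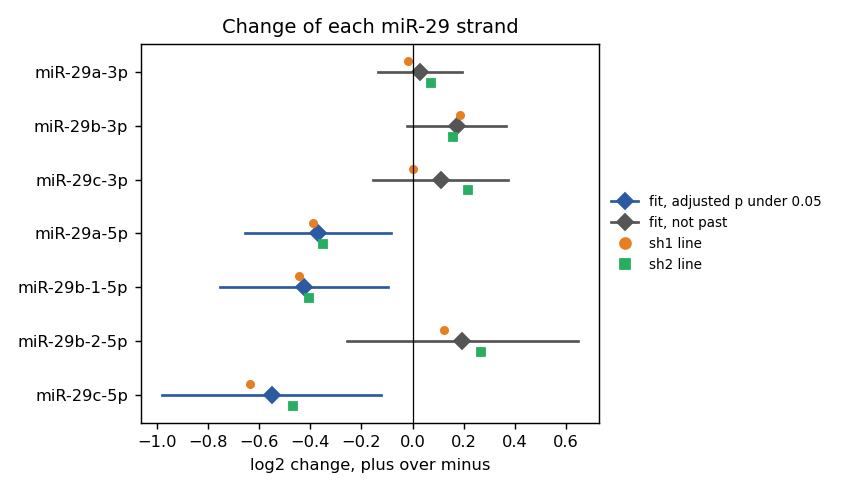
Log2 change, plus over minus, of each miR-29 strand, with the fitted value and its 95% interval (diamonds and lines, blue for an adjusted p under 0.05) and the change within the sh1 (circles) and sh2 (squares) lines. The blue intervals, of miR-29a-5p, miR-29b-1-5p and miR-29c-5p, lie below 0, at fitted values of −0.37, −0.43 and −0.55.

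Because both strands of a hairpin are read in the same library, their ratio does not move when a library is multiplied by a factor. The ratio of miR-29a-3p to miR-29a-5p was 792 and 805 in the plus libraries, against 610 and 600.1 in the minus libraries. For miR-29c the 3p to 5p ratio was 8.54 and 7.90 in the plus libraries, against 5.46 and 4.89 in the minus libraries. miR-29c-5p thus stood much closer to its partner strand than miR-29a-5p did. For both hairpins both plus libraries lay above both minus libraries, as for 39.3% of the 173 hairpins compared below.

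For miR-29b the 3p strand of both copies is counted under 1 name, so its ratio to either 5p strand is an index and not the ratio within a hairpin. The ratio of miR-29b-3p to miR-29b-1-5p was 21.4 and 18.2 in the plus libraries, against 13.8 and 12.3 in the minus libraries. To miR-29b-2-5p it was 45.5 and 41.4 in the plus libraries, against 43.6 and 44.8 in the minus libraries. The plus libraries lay above the minus libraries for the MIR29B1 copy, as for 39.3% of the 173 hairpins, and the groups overlapped for the MIR29B2 copy.

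An exact two-sided permutation test gave p = 0.333 for the ratios of miR-29a, miR-29b-1 and miR-29c, the lowest value possible with 2 libraries on each side, and p = 1 for miR-29b-2. A limma fit over the log2 ratio of main to minor strand in 173 hairpins, chosen after the values were seen, gave a rise of 0.40 with a standard error of 0.13 for miR-29a (adjusted p = 0.0162). The rise was 0.60 with a standard error of 0.16 for miR-29b-1 (adjusted p = 0.0022) and 0.66 with a standard error of 0.21 for miR-29c (adjusted p = 0.0119). miR-29b-2 was at −0.02 with an interval of −0.46 to 0.42 (adjusted p = 0.962). With the shRNA line as a block the adjusted p-values of the 3 rises were 0.0750 to 0.0763 and no hairpin was called, with 49 at an unadjusted p under 0.05. Without 1 library they ranged from 0.0491 to 0.275, and miR-29b-1 without minus replicate 1 was the call that remained.

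The copies of miR-29b were compared through their 5p strands, which does not give the share of each copy in miR-29b-3p. How many reads of either 5p strand were counted under the name of the other was not tested. The ratio of miR-29b-1-5p, from chromosome 7, to miR-29b-2-5p, from chromosome 1, was 2.13 and 2.27 in the plus libraries, against 3.17 and 3.63 in the minus libraries. The groups did not overlap, at a log2 change of −0.62 and an exact permutation p of 0.333. The ratio of miR-29c-5p to miR-29b-2-5p, both from the host gene MIR29B2CHG, was 0.897 and 0.898 in the plus libraries, against 1.53 and 1.502 in the minus libraries. This comparison was added after the values were seen. In it the log2 ratio of these strands of 1 host gene changed by −0.75, at an exact permutation p of 0.333. miR-29c-5p was the higher strand in the minus and the lower in the plus libraries.

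Ratios among the main strands varied less between the groups. miR-29a-3p stood at 66.0 and 75.1 times miR-29b-3p in the plus libraries, against 75.99 and 79.5 times in the minus libraries, which did not overlap (exact permutation p = 0.333). The log2 change of this ratio, −0.14, came to −0.05 (replicate 1 out) or −0.24 (replicate 2 out) when a plus library was left out. Relative to miR-29c-3p it stood at 392 and 438 times in the plus libraries, against 397 and 485 times in the minus libraries, which overlapped (exact permutation p = 0.667). miR-29b-3p stood at 5.94 and 5.84 times miR-29c-3p in the plus libraries, against 5.22 and 6.09 times in the minus libraries, with an exact permutation p of 1.

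**Figure D3:**
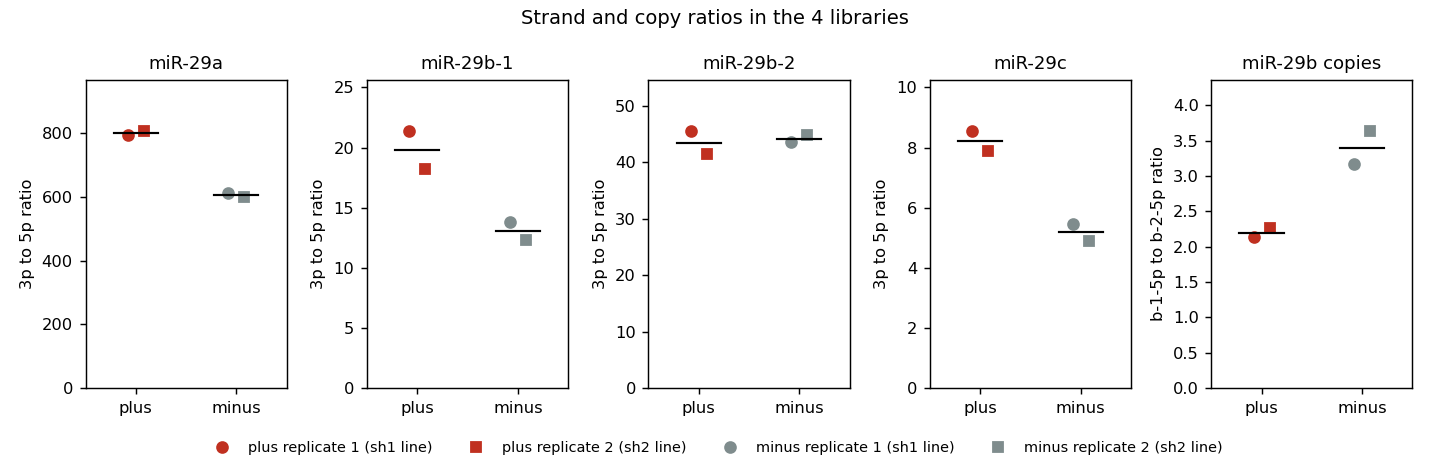
Ratio of the 3p to the 5p strand for each miR-29 hairpin and of miR-29b-1-5p to miR-29b-2-5p in each library, with a bar at the mean of 2 libraries and axes from 0. Red points (plus) lie above grey points (minus) for miR-29a, miR-29b-1 and miR-29c, overlap with them for miR-29b-2, and lie below them for the ratio of the miR-29b copies.

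The same ratio was taken for hairpins that the RefSeq table lists with exactly 2 mature strands, both named in the deposited table. The minor strand mean had to be at least 10. Some hairpins with both strands in the deposited table, such as miR-21, miR-221 and miR-148a, were not among them. The shares below are therefore shares of the hairpins taken. Some main strands, such as miR-16-5p and miR-26a-5p, enter 2 of the ratios. Among the 173 hairpins, the main-to-minor ratio rose for 35, or 20.2%, and fell for 8. In 68, or 39.3%, both plus libraries lay above both minus libraries. The 35 rises became 0 with the line as a block, 0 without plus replicate 1, 3 without plus replicate 2 and 11 without either minus replicate, with 36 to 55 hairpins at an unadjusted p under 0.05 in these fits. In the miR-29 family, where miR-29b-3p enters 2 of the 4 ratios, 3 ratios rose and the same 3 did not overlap. A fallen minor strand beside a main strand that was not called was found in 17 hairpins, or 9.83%, of which 3 are miR-29 hairpins. The median log2 change of the ratio was 0.498 over the 4 miR-29 hairpins and 0.0777 over all 173. Outside miR-29, both plus libraries lay above both minus libraries in 65 of 169 hairpins and below them in 26.

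In the let-7 family, known for restraining RAS and MYC, the ratio rose for 2 of 8 hairpins, and 2 had a fallen minor strand beside a main strand that was not called. Both rises were those of let-7a-3p and let-7a-2-3p, which share the main strand let-7a-5p, so they are not independent. The copy strand let-7f-2-3p was not among the ratios. In the miR-30 family the ratio rose for 1 of 4 and fell for 1 of 4. Neither miR-30b nor miR-30d was among the hairpins taken. On the log2 scale their 5p strands were both at 0.28, and their 3p strands at 0.13 for miR-30b and −0.35 for miR-30d. In the miR-26 family, known for repressing the chromatin enzyme EZH2, the ratio rose for 1 of 3. Whether miR-29 differs from these families was not tested.

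**Figure D4:**
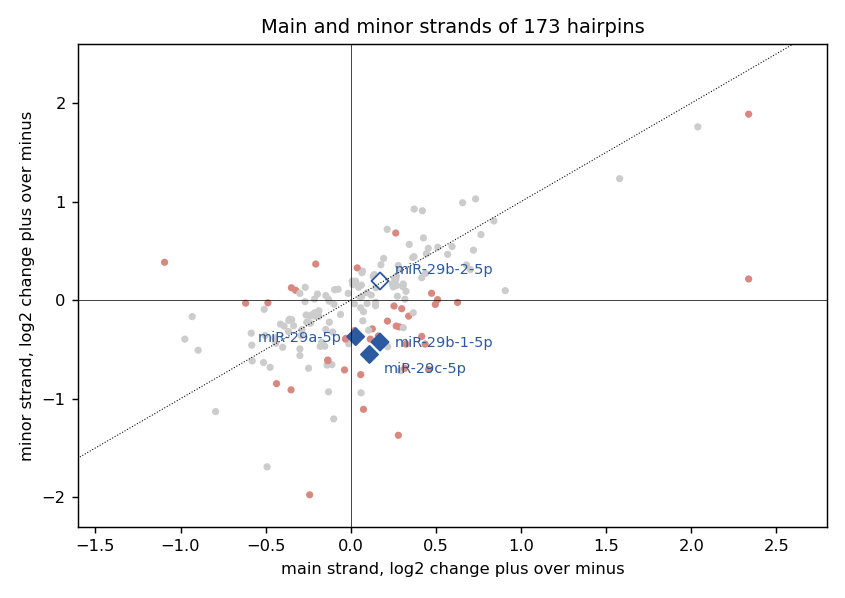
Log2 change, plus over minus, of the minor against the main strand of 173 hairpins, with a dotted line where both are equal, hairpins called for their ratio in red and the others in grey. The miR-29 hairpins are diamonds, filled where the ratio was called; miR-29a-5p, miR-29b-1-5p and miR-29c-5p lie below the line, at −0.37, −0.43 and −0.55 with main strands at 0.03, 0.17 and 0.11.

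Of other miRNAs known to be repressed by MYC, 12 of 55 tested strands rose and 8 fell, where 13.4% of all 709 tested miRNAs rose and 15.1% fell. The share that fell was thus near that of all miRNAs, and the share that rose was larger. In either direction 36.4% of the list was called, beside 28.5% of all 709. The median log2 change was 0.07 beside −0.03 over all 709. Whether the list differs from all miRNAs was not tested. Of their most abundant strands, miR-26a-5p rose (log2 change 0.32, adjusted p = 0.0022) and miR-100-5p fell by 0.25 on the log2 scale (adjusted p = 0.0427). let-7f-5p was at 0.15 and did not pass (limma adjusted p = 0.210). The calls of miR-26a-5p and miR-100-5p were lost with any of the 4 libraries left out, at adjusted p-values from 0.0573 to 0.512. Of the 11 other alternatives, miR-26a-5p was lost in 2 (adjusted p up to 0.160) and miR-100-5p in 6 (up to 1).

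miRNAs with known DNA methyltransferase targets outside the family had 1 of 10 tested strands risen and 2 fallen. Both falls were strands of miR-148a, the 5p strand at −0.50 on the log2 scale. The rise was that of miR-143-3p, whose groups overlapped. It had 2857 and 4143 normalised counts in the plus libraries, against 2892 and 2724 in the minus libraries. With 30% of the list called in either direction, beside 28.5% of all tested miRNAs, and a median of −0.03 in both, the list lay near the level of all miRNAs. miR-148a-3p, which like miR-29 is known to target a DNA methyltransferase, had 73577 and 94965 normalised counts in the plus libraries, against 101643 and 103464 in the minus libraries. It fell by 0.29 on the log2 scale (limma adjusted p = 0.0101), a call that was lost without each library in turn (0.0518 to 0.304) and in 6 of the 11 other alternatives. miR-148b-3p was at −0.09 and miR-185-5p at 0.06, and neither passed (limma adjusted p = 0.399 and 0.640).

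The miRNAs linked to p53 outside the family had 8 of 17 tested strands risen and 3 fallen, beside 13.4% and 15.1% of all tested miRNAs. Their median was 0.29, beside −0.03 over all. miR-34a-5p, a direct p53 target, rose by 0.76 on the log2 scale (limma adjusted p = 6.02e-10, and at most 0.0437 with 1 library left out). This call was lost without the mean-variance trend (adjusted p = 0.0702). The epithelial miR-200c-3p (log2 change 0.13, adjusted p = 0.257) and the cell cycle regulator miR-16-5p (0.07, adjusted p = 0.520) missed the threshold. Of the epithelial markers 6 of 13 tested strands rose, and of the stromal and endothelial ones 4 of 9 rose and 2 fell, where 13.4% of all tested miRNAs rose and 15.1% fell. Among those stromal rises, miR-199a-3p and miR-199b-3p had the same values in every library and are 1 measurement under 2 names. Of the 4 tested blood strands 0 were called by limma, and 0 had an unadjusted p under 0.05. The lists share members, so their counts are not separate results. The rises of miR-192-5p, miR-194-5p and miR-215 count in both the p53 and the epithelial list. That of miR-143-3p, whose groups overlapped, counts in the p53, methyltransferase and stromal lists. miR-15a, miR-16 and miR-34a are in both the MYC and the p53 list. The part of other cells in the miR-29 values was not tested.

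By the root mean square difference of centred log2 values over 4 libraries, among 381 miRNAs with a mean of at least 100, the profiles nearest to miR-29a-3p were those of miR-27a-5p (0.0119), miR-140-3p (0.0145) and miR-671-5p (0.0164). Nearest to miR-29b-3p were miR-103a-3p (0.0263), miR-186-5p (0.0312) and miR-1301 (0.0318). Nearest to miR-29c-3p were miR-548v (0.0367), miR-135b-3p (0.0538) and miR-643 (0.0659). With 4 libraries such likeness describes these samples and carries no test.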

How the data were processed

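Mature miRNAs were counted in 4 small-RNA libraries, 2 per group. The deposited values are a signal per miRNA, read counts adjusted by the authors to a common library size, as judged from the values: of the values under 60, 85.1% to 100%, depending on the library, came within 0.1 of a multiple of that library's step, so whole reads could not be recovered throughout and no count model was used. If that adjustment was more than 1 factor per library, ratios of strands may carry a part of it. Reads were trimmed with cutadapt per the labels' titles. The submitters' processing notes list the genome build hg19 (GRCh37) and the tools TopHat2 (2.0.8b) and edgeR without their roles. What counted the reads, and against which miRNA annotation, is not given in the sources used here. Columns were matched to samples by library number and index, since 2 column names write sh4 where the titles write sh2.

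Plus was tested against minus, two-sided and over all 4 libraries, on log2(value + 1) with limma (3.58.1, under R 4.3.3) and a mean-variance trend, for 709 miRNAs with a mean of at least 10, with Benjamini-Hochberg adjustment over all of them. Fold changes on this scale understate changes of low miRNAs. Each miRNA had 2 residual and 43.0 borrowed degrees of freedom. Strand ratios were fitted likewise with a trend on the minor strand level. Libraries of a group differed beyond sampling noise (chi-square per degree of freedom 67.0 in plus, 19.9 in minus) and come from separate lines. The 2 residual degrees of freedom hold the spread between 2 lines. Most of the variance behind each p-value is borrowed from miRNAs of a like level. The line pairs the libraries, by the label for sh2 and by elimination for sh1; deviations of the same line correlated at r = 0.0555 over the tested miRNAs. Sequences were matched by name to RefSeq (GRCh38.p14). Named are all members, the 3 nearest profiles of each 3p strand and the 3 most abundant strands of the MYC, methyltransferase and p53 lists. The members and lists were chosen with earlier results of these data known.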

Additional observations from a re-analysis of the deposited data

Results flagged for a closer look

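The change of miR-29a-3p had opposite signs in the shRNA lines, at −0.016 in the sh1 line and 0.0739 in the sh2 line on the log2 scale. Both values were smaller in size than the fitted standard error of 0.08. The ratio of miR-29b-3p to miR-29b-2-5p also changed with opposite signs, at 0.0636 in the sh1 and −0.110 in the sh2 line. So did the ratio of miR-29b-3p to miR-29c-3p, at 0.185 in the sh1 and −0.0614 in the sh2 line. With 1 library per line and condition these differences between lines were not tested.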

How the results depend on the processing

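The number of miRNAs called, 202, was 5 with no level filter and 5 without the mean-variance trend, 126 at a minimum mean of 1, 101 under quantile normalization and 7 to 115 with 1 library left out; it was 216 with the replicate block of the shRNA line, which changed no call of a single strand in the family. The split of calls was 95 up and 107 down, against 68 and 107 with equal totals and 121 and 83 under median-ratio scaling. The causes of these differences and of the losses below were not tested.

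miR-29a-5p was no longer past the threshold at −0.37 with no level filter, a minimum mean of 1 or no trend, at −0.31 under median-ratio scaling, −0.35 under TMM scaling, −0.28 under quantile normalization and −0.39 to −0.35 with 1 library left out. miR-29b-1-5p was lost at −0.43 under the first 3 of these, at −0.36 under median-ratio scaling, −0.37 under quantile normalization and −0.48 to −0.38 with 1 library left out. miR-29c-5p was lost at −0.55 under the same 3, at −0.49 under median-ratio scaling, −0.57 under quantile normalization and −0.63 to −0.47 with 1 library left out. At a minimum mean of 100 it was not tested.

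Among the main strands, signs turned for small values of miR-29a-3p and miR-29c-3p. miR-29a-3p was at −0.028 with equal totals, −0.15 under quantile normalization and −0.00032 to 0.0582 with 1 library left out. miR-29b-3p ranged from 0.11 to 0.24 and miR-29c-3p from −0.049 to 0.27 with 1 library left out. The family sum, at a log2 change of 0.0301, was at −0.027 with equal totals and −0.146 under quantile normalization.

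Among ratios with 1 library left out, miR-29b-3p to miR-29b-2-5p ranged from −0.091 to 0.0454, miR-29a-3p to miR-29b-3p from −0.236 to −0.050, miR-29a-3p to miR-29c-3p from −0.225 to 0.0627 and miR-29b-3p to miR-29c-3p from −0.049 to 0.173. In the fit over hairpins, the replicate block of the shRNA line left the ratio changes at 0.40, 0.60 and 0.66 for miR-29a, miR-29b-1 and miR-29c but not past the threshold. With a plus library left out they were 0.39 to 0.41, 0.48 to 0.71 and 0.60 to 0.72, and with a minus library left out 0.39 to 0.41, 0.52 to 0.68 and 0.58 to 0.74. Depth limits the minor strands, of which miR-29c-5p and miR-29b-2-5p rest on about 139 to 215 reads per group.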
